A study of Homo sapiens with 6 samples.

Results

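The BCL2 family genes examined here were BCL2, BCL2L1, MCL1, BAX, BAK1, BBC3, PMAIP1, BCL2L11, BID and BAD. They are defined by a list of gene names, and are 10 of the 62252 genes with a transcript in the deposited files. Each gene's level is the sum over its annotated transcripts (GENCODE release 44, genome build GRCh38), 87 transcripts in all. The data came from K562 cells, an erythroid leukemia cell line that grows in suspension and carries the BCR-ABL1 fusion. Cells were kept overnight in medium with 10 µM 21H7, an iron chelator that enters cells (the Chelator group, 3 libraries), or with an equal volume of its solvent DMSO (the DMSO group, 3 libraries). Both groups were otherwise the same untransduced line. Polyadenylated RNA was sequenced as paired-end reads, and the comparison asks how the transcriptome differs when iron is scarce. The labels call the 3 libraries of a group biological replicates and do not say how they were separated, so p-values measure the spread between these libraries.

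The BCL2 family sets whether the outer membrane of the mitochondrion stays sealed. Guardians such as BCL2, BCL-xL (from BCL2L1) and MCL1 hold the effectors BAX and BAK1 in check, and BH3-only proteins such as PUMA (from BBC3), NOXA (from PMAIP1) and BIM (from BCL2L11) bind guardians or effectors and tip the balance towards pore formation, release of cytochrome c and caspase activation. Erythroid cells are known to depend on BCL-xL as they mature, and several BH3-only genes are known targets of stress-responsive transcription factors, so that family members are often read together.

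The libraries held between 78.6 M and 90.4 M estimated counts in DMSO and between 85.4 M and 101 M in Chelator. The estimated fragment length was 252 to 264 bases in DMSO and 200.0 to 218 bases in Chelator, so an effect of fragment length cannot be told apart from one of the chelator in the results given here. Compared over all genes, DMSO replicate 2 stood apart from the other DMSO libraries (chi-square per gene of 63.5 and 44.3, against 8.52 between those), and Chelator replicate 1 from the other Chelator libraries (29.9 and 28.1, against 6.54), whereas libraries of different groups were at 219 to 327. Without DMSO replicate 2, BCL2, BAX and BAD no longer passed the test of expression and BAK1 did, as given with each gene. Mitochondrially encoded transcripts held 4.42% to 7.06% of counts in DMSO and 5.36% to 6.26% in Chelator. All 10 markers fixed for K562 were expressed in every library, with a summed level of 12596 to 13939 TPM (a level per transcript length, scaled to the same total in every library) in DMSO and 17662 to 18845 TPM in Chelator. Globins (HBG1, HBG2, HBE1 and HBZ) made up most of that sum and were higher in every Chelator library. KLF1 (77.8 to 87.4 TPM in DMSO and 47.7 to 52.9 TPM in Chelator), LMO2 (87.0 to 102 and 56.6 to 58.6 TPM), NFE2 (141 to 156 and 106 to 120.0 TPM) and TAL1 (48.7 to 61.7 and 42.9 to 46.1 TPM) were lower in every Chelator library. Of 9 markers of other cell types, MS4A1 was at 0 in every library, and the summed level was 85.4 to 96.9 TPM in DMSO and 70.3 to 74.9 TPM in Chelator. EPCAM (45.6 to 68.8 TPM) and PTPRC (18.5 to 25.4 TPM) made up most of it. Their part in the results was not tested.

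With the chelator, MCL1 rose 1.73-fold among the guardians, and BBC3 (2.93-fold) and PMAIP1 (1.79-fold) rose among the BH3-only genes. BCL2L1 and BAX rose by less (1.18-fold and 1.19-fold) and BAD rose 1.29-fold, while BCL2, the guardian with the lowest level, fell to 0.707 of its DMSO level. Of these, BAX passed in only 6 of 14 alternative settings of the test, BCL2 in 8 and BAD in 11, and with GC content and length trends removed BAX (-0.012) and BAD (0.0096) were near 0 on the log2 scale. In TPM, the higher BAX sum lay in BAX-211, a short transcript not annotated as coding, and the summed TPM of BAX coding transcripts was lower in every Chelator library. Estimated counts of BAX coding transcripts did not all go that way, as given with the transcripts. The part of fragment length in the BAX-211 share was not tested. BAK1, BCL2L11 and BID did not pass the test. By DESeq2's Wald test over all genes, 7 of 10 members passed an adjusted p under 0.05 (6 higher and 1 lower), against 37.7% of the 24542 genes with an adjusted p (19.5% higher and 18.3% lower). This count was 4 without Chelator replicate 3 and 5 without DMSO replicate 1 or without DMSO replicate 2. Only BBC3 was also past an absolute log2 fold change of 1, so 1 of 10 members was called, against 10.8% of all genes. The normalized counts of the groups did not overlap in 7 of 10 members, against 49.2% of all genes. The median log2 fold change was 0.24 over the 10 members and 0.016 over all genes tested. In bulk RNA, a change in the share of cells of one state and a change in RNA per cell cannot be told apart.

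Levels per transcript length spanned a wide range within the family. In DMSO, MCL1 was highest at 151 ± 9.14 TPM (SD, n = 3). BAX (96.6 ± 5.06 TPM) and BCL2L1 (94.7 ± 6.06 TPM) followed, and their values overlapped. BID was at 45.9 ± 1.06 TPM, BAK1 at 25.9 ± 1.28 TPM and BAD at 16.3 ± 0.803 TPM, each apart from its neighbors. PMAIP1 (10.0 ± 1.24 TPM) and BBC3 (8.37 ± 0.707 TPM) overlapped with each other. BCL2L11 was at 5.79 ± 0.994 TPM, and BCL2 came last at 0.74 ± 0.0902 TPM. In Chelator, MCL1 (267 ± 9.31 TPM), BAX (117 ± 14.8 TPM), BCL2L1 (114 ± 2.80 TPM) and BID (44.1 ± 3.66 TPM) kept the first 4 ranks in the same order. The values of BAX and BCL2L1 again overlapped. Without BAX-211, BAX was at 79.8 ± 3.11 TPM in DMSO and 72.7 ± 7.80 TPM in Chelator, below BCL2L1 in both groups. BBC3 moved from rank 8 to rank 5 at 25.0 ± 0.736 TPM, where it overlapped with BAK1 (24.2 ± 0.560 TPM), which in turn overlapped with BAD (21.6 ± 2.73 TPM). PMAIP1 (18.2 ± 0.242 TPM), BCL2L11 (6.39 ± 0.486 TPM) and BCL2 (0.532 ± 0.0683 TPM) filled the last 3 ranks. Summed by role, guardians were at 247 ± 14.9 TPM in DMSO and 382 ± 11.3 TPM in Chelator, effectors at 122 ± 5.76 and 142 ± 15.0 TPM, and the 5 BH3-only genes at 86.4 ± 1.76 and 115 ± 5.68 TPM. Without BAX-211, which is described with the other transcripts, effectors were at 106 ± 3.49 TPM in DMSO and 96.9 ± 7.80 TPM in Chelator. These sums carry no test, and MCL1 alone made up most of the guardian sum in both groups.

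**Figure D1:**
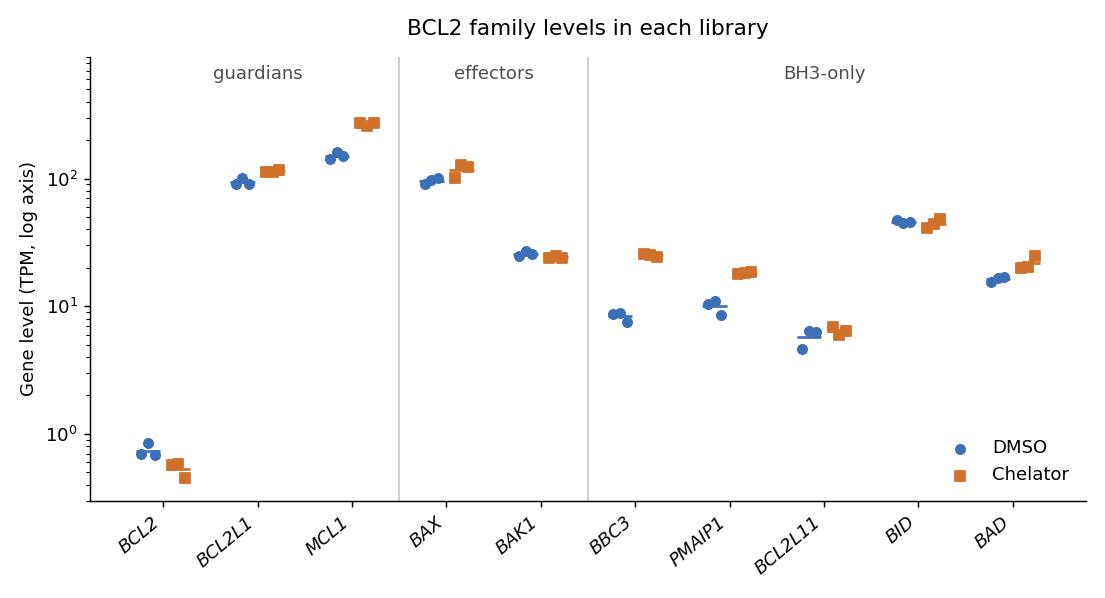
Gene level in TPM (log axis) of each of the 10 members in each library, grouped by role, with DMSO libraries as circles, Chelator libraries as squares and the group mean as a short line. MCL1 is highest and BCL2 lowest in both groups, and the 3 Chelator values of MCL1, BBC3 and PMAIP1 lie above all 3 DMSO values.

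Of the guardians, MCL1 (chr1:150560895-150579738, minus strand) encodes a short-lived protein that holds BAK1 and BIM. Its normalized counts, which are corrected for library size and for the average transcript length of the gene in each library, were 32722, 31085 and 33881 in DMSO and 58801, 52614 and 57853 in Chelator. The groups were far apart, and all 3 Chelator libraries were above every DMSO library. The log2 fold change was 0.79 ± 0.0719 (SE) with an adjusted p of 1.28e-26 by DESeq2's Wald test, and it passed under all 14 alternative settings of the test (0.68 to 0.84).

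BCL2L1 (chr20:31664452-31723989, minus strand) encodes BCL-xL, the guardian that erythroid cells rely on. Its normalized counts were 18755, 17571 and 18359 in DMSO and 21858, 20604 and 22115 in Chelator. The rise was small but the groups did not overlap, with a log2 fold change of 0.24 ± 0.0661 (SE) and an adjusted p of 0.00116 (DESeq2), and it passed under all 14 settings (0.15 to 0.28). BCL2 (chr18:63123346-63320128, minus strand), the founding guardian of the family, had 310.5, 317 and 298 normalized counts in DMSO and 239, 229 and 186 in Chelator. These are low counts for such deep libraries, and every Chelator value was below every DMSO value. BCL2 fell by 0.50 ± 0.183 (SE) on the log2 scale with an adjusted p of 0.0195 (DESeq2), but it did not pass in 6 of 14 settings, among them edgeR's quasi-likelihood test (adjusted p = 0.0556) and the removal of GC content and length trends (adjusted p = 0.157). It also did not pass when DMSO replicate 1 (adjusted p = 0.0524), DMSO replicate 2 (0.0531) or Chelator replicate 3 (0.0978) was left out.

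The effectors BAX and BAK1 form the pores themselves. BAX (chr19:48954815-48961798, plus strand) had 3752, 3399 and 4097 normalized counts in DMSO and 3927, 4713 and 4695 in Chelator. The ranges overlapped, since Chelator replicate 1 was below DMSO replicate 3. The log2 fold change was 0.25 ± 0.102 (SE) with an adjusted p of 0.0425 (DESeq2). BAX passed in only 6 of 14 settings and was at -0.012 (adjusted p = 0.939) once GC content and length trends were removed. Without the length offset it was at 0.088 (adjusted p = 0.529), and without Chelator replicate 2, the highest library, at 0.20 (adjusted p = 0.206). Leaving out DMSO replicate 1 (adjusted p = 0.121), DMSO replicate 2 (0.190) or Chelator replicate 3 (0.196) also took it past the threshold of 0.05. BAK1 (chr6:33572547-33580293, minus strand) had 4257, 3946 and 4304 normalized counts in DMSO and 3911, 3800.2 and 3735 in Chelator. The Chelator values were the lower ones, but by little, and the log2 fold change of -0.13 ± 0.0755 (SE) did not pass (adjusted p = 0.184, DESeq2), with a 95% interval from -0.28 to 0.02. With GC content and length trends removed it was -0.28 (adjusted p = 0.000155), and without DMSO replicate 2 it was -0.17 (adjusted p = 0.0405). BAK1 shares 18.2% of the 31-base sequences of its transcripts with other genes, most of them with the pseudogene BAK1P1, which had 0 to 5.01 estimated counts per library.

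Among the BH3-only genes, BBC3 (chr19:47220822-47232766, minus strand) encodes PUMA, which binds all guardians. Its normalized counts were 1375, 1183 and 1179 in DMSO and 3853, 3570.3 and 3529 in Chelator. The lowest Chelator library was far above the highest DMSO library. BBC3 rose by 1.55 ± 0.0950 (SE) on the log2 scale with an adjusted p of 9.63e-58 (DESeq2), the largest change of the 10 members, and it was past the fold threshold in all 14 settings (1.21 to 1.69). PMAIP1 (chr18:59899996-59904305, plus strand) encodes NOXA, which binds MCL1. Its normalized counts were 975, 875 and 799 in DMSO and 1611, 1522 and 1600.2 in Chelator. Again the groups were well apart, and the Chelator libraries lay close together. The log2 fold change was 0.84 ± 0.108 (SE) with an adjusted p of 1.72e-13 (DESeq2), it passed in all 14 settings, and it moved past 1 (1.09) once GC content and length trends were removed.

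The 250 bases before the RefSeq start of these 2 genes, the BH3-only members with the largest rises, are given below (RefSeq, GRCh38.p14). For BBC3 they are chr19:47232668-47232917 (minus strand), and capitals mark CACGTG, a palindrome that holds ACGTG, the core letters bound by hypoxia-inducible factors, on both strands. For PMAIP1 they are chr18:59899746-59899995 (plus strand), and capitals mark ACGTCA, which reads TGACGT, the core of a cyclic AMP response element, on the other strand.
BBC3 promoter: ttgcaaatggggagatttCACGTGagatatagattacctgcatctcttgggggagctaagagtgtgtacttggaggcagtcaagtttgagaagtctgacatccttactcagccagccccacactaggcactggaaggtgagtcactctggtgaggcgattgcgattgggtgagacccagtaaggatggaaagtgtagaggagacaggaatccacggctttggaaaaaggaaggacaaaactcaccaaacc
PMAIP1 promoter: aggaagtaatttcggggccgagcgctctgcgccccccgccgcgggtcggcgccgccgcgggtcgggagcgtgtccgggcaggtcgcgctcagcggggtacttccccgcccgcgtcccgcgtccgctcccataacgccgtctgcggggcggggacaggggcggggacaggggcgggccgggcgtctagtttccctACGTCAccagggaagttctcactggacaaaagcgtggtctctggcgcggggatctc
The match in BBC3 starts 232 bases before the start site and that in PMAIP1 56 bases before it. Promoter entries were present for 9 of the 10 members, with 15 windows in all because some genes have several start sites, and MCL1 had none. ACGTG, searched on both strands, was found in 4 of 15 windows (of BAX, BBC3 and BID), against 18.5% of 35116 promoter windows of the same length. TGACGT was found in 3 of 15 windows (of BAD and PMAIP1), against 7.10% of windows, and TGATGNAA, a form of the site shared by ATF4 and C/EBP factors, in 0 of 15, against 3.14% of windows. The windows of BAD overlap and hold the same TGACGT site, and the BID windows with ACGTG likewise hold the same site. Counts of windows are therefore not counts of separate sites. A match describes the letters of this window and is not a measured binding site.

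BAD (chr11:64269830-64284704, minus strand) encodes a BH3-only protein that is kept inactive by phosphorylation downstream of growth factors. It had 826, 753 and 892 normalized counts in DMSO and 1003, 973 and 1219 in Chelator. The groups did not overlap, and Chelator replicate 3 was the highest. BAD rose by 0.37 ± 0.129 (SE) on the log2 scale (adjusted p = 0.0131, DESeq2), but it was at 0.0096 (adjusted p = 0.963) with GC content and length trends removed, and it also did not pass when DMSO replicate 2 (adjusted p = 0.0693) or Chelator replicate 3 (0.113) was left out. BAD overlaps GPR137 on the opposite strand and shares 18.5% of its 31-base sequences with it, and GPR137 was higher in Chelator by 0.98 on the log2 scale (adjusted p = 7.19e-15, DESeq2). Whether strand was used in the counting was not given in the sources used here, so reads in the shared stretch may belong to either gene.

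BCL2L11 (chr2:111119378-111168444, plus strand) encodes BIM, which binds guardians and can activate BAX and BAK1. Its normalized counts were 1079, 1262 and 1436 in DMSO and 1513, 1225 and 1366 in Chelator. The groups overlapped, and the log2 fold change of 0.12 ± 0.130 (SE) did not pass (adjusted p = 0.521, DESeq2), nor did it in any of the 14 alternative settings, with a 95% interval from -0.13 to 0.37. Without the length offset the value was -0.14 (adjusted p = 0.425). BID (chr22:17734138-17774770, minus strand), whose product links death receptors to mitochondria after cleavage by caspase-8, had 4238, 3427 and 4018 normalized counts in DMSO and 3468, 3524 and 3969 in Chelator. These ranges overlapped, and the log2 fold change of -0.09 ± 0.10 (SE) did not pass (adjusted p = 0.525, DESeq2), with a 95% interval from -0.29 to 0.10. With GC content and length trends removed BID was at -0.21 (adjusted p = 0.0433).

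**Figure D2:**
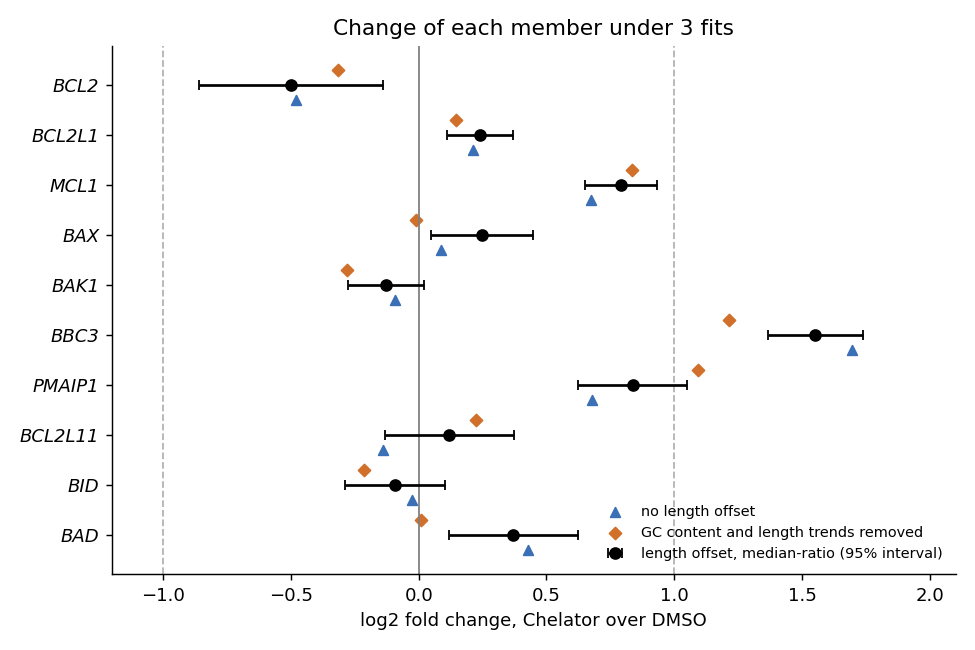
Log2 fold change (Chelator over DMSO) of each of the 10 members by DESeq2 with the length offset (circles, bars are 95% intervals), without that offset (triangles) and with GC content and length trends of each library removed (diamonds), and with dashed lines at the fold threshold. MCL1, BBC3 and PMAIP1 lie well to the right of 0 in all 3 fits, whereas BAX and BAD lie at 0 in the fit with GC content and length trends removed.

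Several members are made as products of opposite or graded activity, so transcripts were grouped by the length of their annotated coding sequence. The sequence pieces that separate these products are given below because the shares that follow rest on them (GENCODE release 44, GRCh38, written 5′ to 3′ on the strand of the gene). In BCL2L1, the long form BCL-xL keeps 189 bases (chr20:31721653-31721843, minus strand, with the 2 bases after them) that the short form BCL-xS loses by use of an earlier splice donor, and capitals mark the GT of both donors. In MCL1, the anti-apoptotic long form keeps an exon of 248 bases (chr1:150578242-150578493, minus strand, with 2 flanking bases on each side) that the short form skips, and capitals mark its splice acceptor AG and donor GT. In BCL2L11, the form BIM-EL keeps 180 bases (chr2:111123870-111124049, plus strand) that are spliced out in BIM-L, and capitals mark their first GT and last AG. In BAX, the transcript BAX-211 lacks an exon of 52 bases (chr19:48955546-48955601, plus strand, with 2 flanking bases on each side), which is not a multiple of 3, and capitals mark AG and GT.
BCL2L1 long-form piece: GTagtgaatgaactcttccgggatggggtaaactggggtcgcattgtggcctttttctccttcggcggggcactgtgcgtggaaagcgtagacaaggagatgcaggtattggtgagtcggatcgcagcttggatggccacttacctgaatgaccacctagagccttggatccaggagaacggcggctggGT
MCL1 skipped exon: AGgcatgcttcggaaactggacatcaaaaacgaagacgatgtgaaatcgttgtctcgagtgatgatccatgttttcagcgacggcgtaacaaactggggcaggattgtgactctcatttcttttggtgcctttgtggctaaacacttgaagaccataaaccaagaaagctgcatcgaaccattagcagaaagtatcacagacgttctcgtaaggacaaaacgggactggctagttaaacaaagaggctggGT
BCL2L11 spliced piece: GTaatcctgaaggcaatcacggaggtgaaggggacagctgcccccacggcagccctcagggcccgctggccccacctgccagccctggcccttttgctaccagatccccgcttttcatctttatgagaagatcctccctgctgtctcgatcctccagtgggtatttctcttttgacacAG
BAX skipped exon: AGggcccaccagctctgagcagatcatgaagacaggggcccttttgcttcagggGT

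BCL2L1 was the only member called for transcript usage by edgeR's diffSpliceDGE (adjusted p = 0.0140 by Simes' method, with a largest share change of 10.1 percentage points), so 1 of 10 members was called, against 9.22% of 11938 genes. The p-value and the share change came from different transcripts. The lowest transcript p was that of BCL2L1-205 (adjusted p = 0.00523, edgeR), which had 0 counts in DMSO replicates 1 and 3. The 10.1 points were those of BCL2L1-203 (adjusted p = 0.843, edgeR). The call moved with single libraries: the adjusted p was above 0.05 when DMSO replicate 1 (0.177), DMSO replicate 3 (0.148), Chelator replicate 1 (0.0762), Chelator replicate 2 (0.0505) or Chelator replicate 3 (0.188) was left out. BCL2L1 was called without DMSO replicate 2 (3.82e-10), by limma's diffSplice (0.000353) and with a replicate block (0.00331). The count minimum in at least 5 libraries (0.0109) and transcripts of at least 500 bases (0.0146) also kept the call. So did the likelihood ratio fit (2.27e-09), which was chosen after seeing the data. The largest changes of share were among transcripts of the same coding product, whereas the split between coding products did not differ beyond the spread of the libraries. The 170-residue product, the length of BCL-xS, held 9.36%, 9.12% and 7.61% of BCL2L1's TPM in DMSO and 9.52%, 7.73% and 9.67% in Chelator. These values overlapped, with means of 8.70 ± 0.947% and 8.97 ± 1.08% (SD, n = 3). The difference was 0.27 percentage points (p = 0.5, exact two-sided permutation test, in which 3 against 3 libraries cannot go below 0.1). The 233-residue product BCL-xL held 90.3 ± 0.894% in DMSO and 89.7 ± 1.11% in Chelator.

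Within the short form, the 2 transcripts with that coding length had differences of opposite sign. BCL2L1-205 was at 0 in DMSO replicates 1 and 3, at 1.87% of the gene's TPM in DMSO replicate 2, and at 5.27%, 5.59% and 6.48% in Chelator. Its share rose by 5.16 percentage points (adjusted p = 0.00523, edgeR, over 74109 transcripts). BCL2L1-202 held 9.36%, 7.26% and 7.61% in DMSO and 4.25%, 2.14% and 3.19% in Chelator, and that difference of -4.89 percentage points did not pass (adjusted p = 0.375).

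Among the long-form transcripts, BCL2L1-203, which is annotated without a spliced leader before the coding exon, held 24.0 ± 1.97% in DMSO and 34.2 ± 2.13% in Chelator. BCL2L1-206 held 20.2 ± 2.11% and 25.8 ± 1.09%. BCL2L1-201 held 22.4 ± 1.47% and 17.8 ± 3.14%, and BCL2L1-210 held 15.3 ± 1.90% and 6.66 ± 0.436%. The groups did not overlap in any of these 4 transcripts, but none passed by itself, with the lowest adjusted p at 0.136 for BCL2L1-210 (edgeR). Grouped by first intron, BCL2L1-201 and BCL2L1-202 together, which share one, held 30.5 ± 0.542% in DMSO and 21.0 ± 2.28% in Chelator. The group of BCL2L1-205, BCL2L1-210 and BCL2L1-215 held 16.6 ± 1.37% and 13.4 ± 0.539%. BCL2L1 shares 37.8% of its 31-base sequences with ABALON, a noncoding RNA on the opposite strand, which had only 0 to 108 estimated counts per library.

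**Figure D3:**
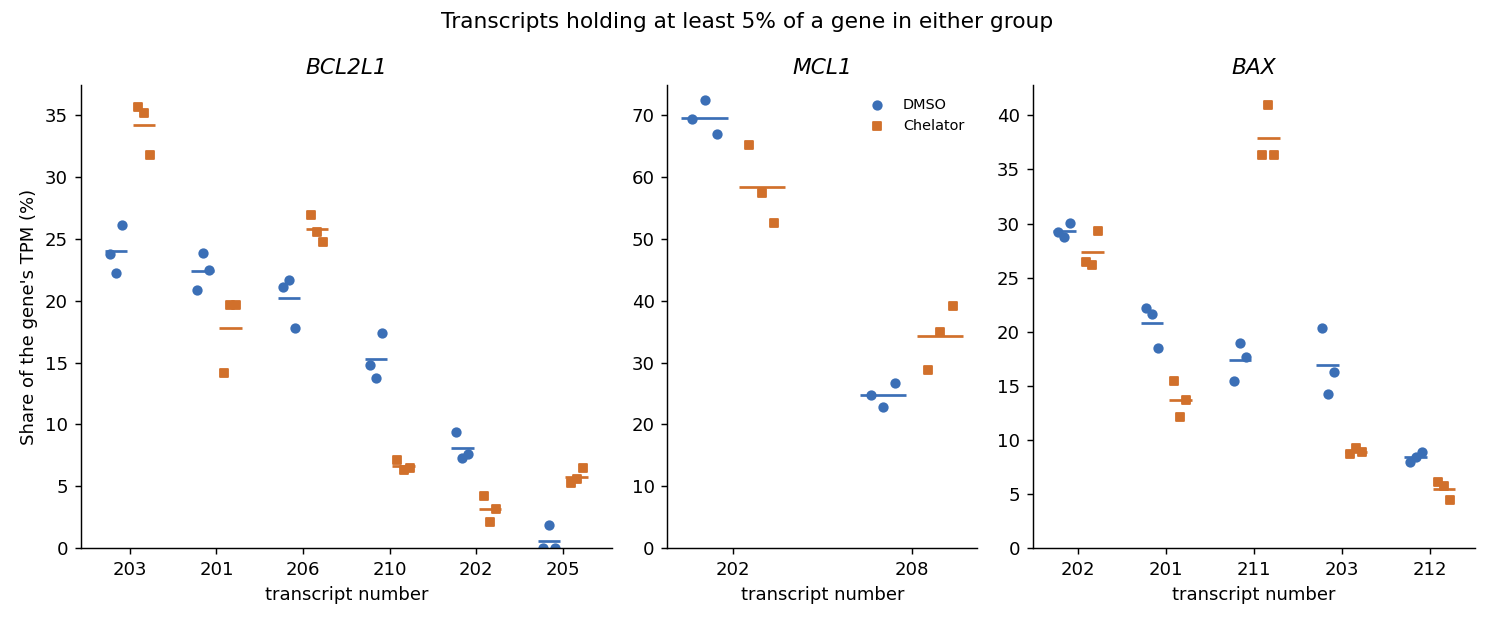
Share of the gene's TPM (%) held by each transcript with at least 5% in either group, for BCL2L1, MCL1 and BAX, with 1 point per library (circles DMSO, squares Chelator) and the group mean as a line. BCL2L1-203, MCL1-208 and BAX-211 lie higher in all 3 Chelator libraries than in any DMSO library, and BCL2L1-210 lies lower.

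For MCL1, nearly all of the level was in transcripts that encode the full 350-residue guardian, with 94.3 ± 0.784% of TPM in DMSO and 92.7 ± 1.11% in Chelator. Shorter coding products together held 2.56%, 2.20% and 3.22% in DMSO and 2.23%, 3.30% and 4.17% in Chelator. These groups overlapped, and the difference of 0.57 percentage points did not stand apart (p = 0.4, exact two-sided permutation test). The transcripts of the full-length product differed in another way. MCL1-202, of 3950 bases, held 69.3%, 72.4% and 67.0% in DMSO and 65.1%, 57.5% and 52.6% in Chelator. MCL1-208, of 1256 bases, has the same coding length but a much shorter annotated end, and it held 24.8%, 22.8% and 26.7% in DMSO and 28.8%, 34.9% and 39.2% in Chelator. The share of MCL1-208 rose by 9.55 percentage points (adjusted p = 0.0403 for the transcript, edgeR), whereas the test of the whole gene was at an adjusted p of 0.0538. MCL1 was called for usage by limma's diffSplice (adjusted p = 0.00112), with the count minimum in at least 5 libraries (0.00818), with transcripts of at least 500 bases (0.0355) and by the likelihood ratio fit (0.0123). It was also called without DMSO replicate 3 (0.0493) and without Chelator replicate 1 (0.000665), but not without any of the other 4 libraries (0.186 to 0.759). MCL1-208 had 2824 to 3335 estimated counts in DMSO and 7866 to 10212 in Chelator. MCL1-202 had 24295 to 27838 and 37851 to 51673, so both transcripts had more counts in every Chelator library. Fragments were shorter in the Chelator libraries than in the DMSO libraries, as given above, and the part of fragment length in these shares was not tested.

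For BCL2L11, the 198-residue product BIM-EL came from BCL2L11-204, and the 138-residue product BIM-L came from BCL2L11-201. BIM-EL held 67.5%, 53.3% and 62.1% of the gene's TPM in DMSO and 50.9%, 52.9% and 33.2% in Chelator. All Chelator values were below all DMSO values, but DMSO replicate 2 and Chelator replicate 2 were almost the same. The means were 60.9 ± 7.18% and 45.7 ± 10.9% (SD, n = 3), a difference of -15.3 percentage points with p = 0.1 by the exact two-sided permutation test, the smallest p that 3 against 3 libraries allow. Without Chelator replicate 3 the difference was -9.04 points. By share of estimated counts it was -11.0 points and with transcripts of at least 500 bases -16.9 points, both with p = 0.2 by the exact permutation test. BIM-L held 21.3%, 29.3% and 18.8% in DMSO and 34.0%, 27.1% and 53.5% in Chelator, and these groups overlapped (p = 0.2, exact permutation test). Its counts were low, from 96.3 to 152 in DMSO and from 176 to 322 in Chelator. Usage of BCL2L11 did not pass in edgeR's model over all genes (adjusted p of 1.00) but was called by limma's diffSplice (adjusted p = 0.0444). A further 12.5 ± 4.26% in DMSO and 13.6 ± 5.15% in Chelator lay in transcripts whose version differed from the annotation, chiefly BCL2L11-203 (10.4 ± 2.67% and 11.9 ± 6.60%), and was given no product. BCL2L11 overlaps the noncoding gene MIR4435-2HG on the opposite strand, with which it shares most of the 11.1% of its 31-base sequences found in other genes, and MIR4435-2HG had 6356 to 8875 estimated counts per library.

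**Figure D4:**
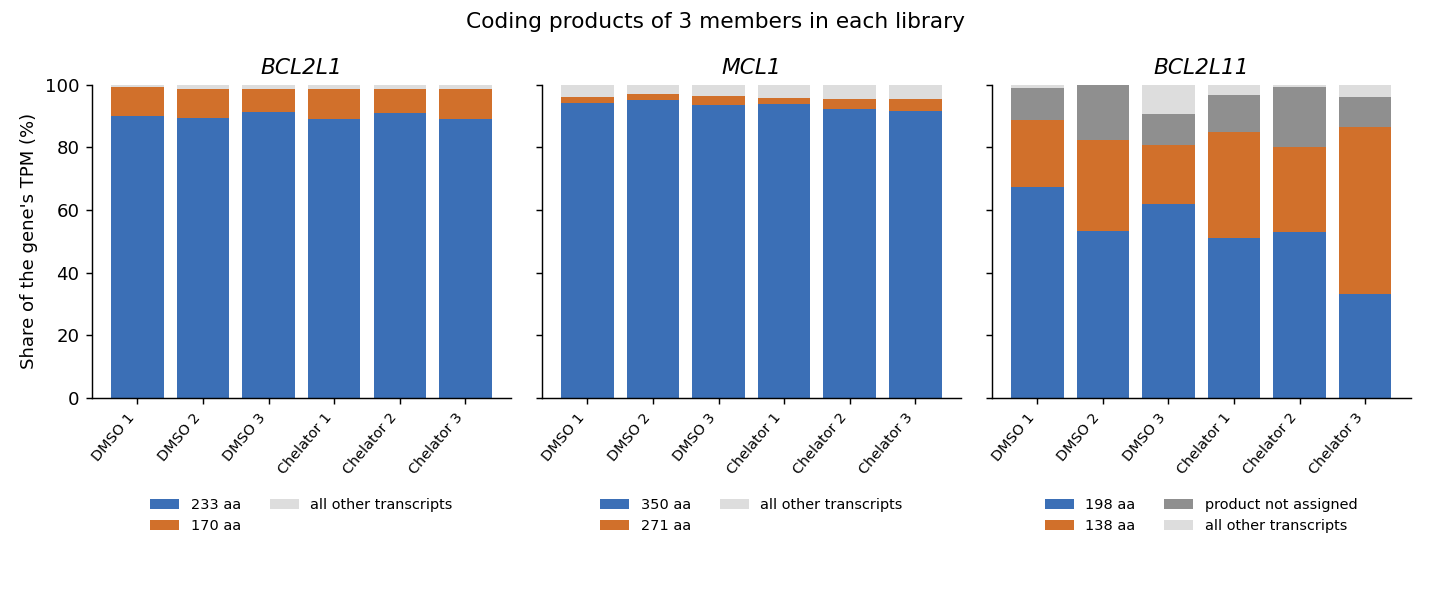
Share of the gene's TPM (%) held by the largest coding products of BCL2L1, MCL1 and BCL2L11 in each of the 6 libraries, stacked to 100%, with products named by their length in residues. BCL2L11 transcripts with no product assigned are shown apart, and all other transcripts, coding or not, are pooled. The BCL2L1 and MCL1 bars look alike in both groups, whereas the 198-residue share of BCL2L11 is lower in the 3 Chelator libraries, with 33.2% in Chelator replicate 3.

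The largest change of share in the family was in BAX, and this transcript was singled out after its values were seen. BAX-211, a transcript of 300 bases annotated as a target of nonsense-mediated decay and not as a coding form, held 15.4%, 19.0% and 17.6% of BAX's TPM in DMSO and 36.4%, 41.0% and 36.3% in Chelator. The groups were well apart, at 17.4 ± 1.80% and 37.9 ± 2.67% (SD, n = 3). Its estimated counts were 71.2 to 83.6 in DMSO and 286 to 495 in Chelator. Its level was 14.1, 18.6 and 17.8 TPM in DMSO and 36.5, 52.4 and 45.0 TPM in Chelator. The coding transcripts of BAX together were at 72.5, 72.4 and 75.4 TPM in DMSO and 56.9, 68.2 and 69.7 TPM in Chelator. In TPM the gene's mean was thus higher in Chelator while its coding part was lower in each Chelator library, a difference that was not tested. Estimated counts, not corrected for library size, differed from this. Those of the coding transcript BAX-202 were 1247, 1074 and 1235 in DMSO and 1384, 1909 and 1778 in Chelator. Those of BAX-201, BAX-203 and BAX-212, also coding, overlapped between the groups. Neither the transcript (adjusted p = 0.0733, edgeR) nor the gene (adjusted p = 0.137, edgeR) passed, but the gene was called by limma's diffSplice (adjusted p = 4.04e-06) and when transcripts had to reach the count minimum in at least 5 libraries (adjusted p = 0.00877). A transcript this short is close to the fragment lengths of 252 to 264 bases in DMSO and 200.0 to 218 bases in Chelator, and the part of fragment length in its share was not tested. With transcripts under 500 bases left out, the adjusted p of BAX was 1.00. Transcripts of BAX that are not annotated as coding held 23.9 ± 3.12% together in DMSO and 44.6 ± 1.80% in Chelator. The coding product of 192 residues, from BAX-202, held 29.3 ± 0.681% and 27.3 ± 1.71%, and these groups overlapped. The groups did not overlap for the products of 218 residues (20.8 ± 1.98% and 13.7 ± 1.65%), 143 residues (17.0 ± 3.09% and 8.93 ± 0.297%) and 140 residues (8.44 ± 0.435% and 5.44 ± 0.882%), each lower in Chelator.

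Around the family, genes of the same pathway were taken from lists written from general knowledge with earlier results of these data known. Of 76 list genes with an adjusted p, 20 passed higher and 27 lower (19.5% and 18.3% of all genes), and 29 did not pass. Of the 76, 8 were called, beside 10.8% of all genes. Among 9 further BCL2 family genes with an adjusted p, 5 passed higher and 0 lower, beside 19.5% and 18.3% of all genes. BMF, a BH3-only gene, rose from 122 ± 53.8 to 373 ± 64.2 normalized counts (log2 fold change 1.66, adjusted p = 2.17e-08), and BOK, an effector relative, rose from 308 ± 8.62 to 691 ± 40.6 (1.17, adjusted p = 2.23e-16), though BOK was under the fold threshold (0.89) with GC content and length trends removed. The median log2 fold change of this list was 0.35. None of the 3 mitochondrial pore partners (VDAC1, VDAC2 and VDAC3) passed by DESeq2 (adjusted p from 0.288 to 0.417), and 0 of them had an unadjusted p under 0.05.

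Downstream of the pores, 2 of 9 genes of the apoptosome and caspases passed higher and 4 lower (19.5% and 18.3% of all genes), and 0 were called. CASP9, the initiator caspase of the apoptosome, was higher by 0.93 on the log2 scale, and DFFA, the inhibitor of the caspase-activated nuclease, was lower, at -0.95. Of 7 inhibitors of apoptosis proteins and their antagonists, 1 passed higher and 4 lower (19.5% and 18.3% of all genes), with a median log2 fold change of -0.24. In the death receptor pathway, 5 of 11 genes passed higher and 2 lower (19.5% and 18.3% of all genes). TNFRSF10B, a receptor for the ligand TRAIL, rose from 1440.4 ± 132 to 5001 ± 128 normalized counts (log2 fold change 1.80, adjusted p = 1.18e-87, DESeq2). TNFRSF10A, the other such receptor in the list, fell from 5189 ± 105 to 3246 ± 236 normalized counts (log2 fold change -0.68, adjusted p = 1.39e-15, DESeq2). TNFSF10, which encodes TRAIL, was also called but at a low level, with 7.86 ± 3.49 and 29.2 ± 6.23 normalized counts, and it lost the call in 4 of 14 settings. CASP9 and DFFA are named here although neither was called, and they, TNFRSF10A and TNFSF10 were chosen after their values were seen.

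Upstream, 6 of 11 known transcriptional inducers of members passed higher and 3 lower (19.5% and 18.3% of all genes), with a median log2 fold change of 0.44. ATF3 rose from 556 ± 56.4 to 3300.5 ± 425 normalized counts (log2 fold change 2.57) and DDIT3 from 544 ± 68.9 to 2711 ± 66.3 (2.32). Both are transcription factors of the integrated stress response, as is ATF4, which rose from 13627 ± 1044 to 38021 ± 921 (1.48). All 3 had adjusted p-values of 1.3e-85 or lower by DESeq2.

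Of 9 genes that control the turnover of MCL1 and of BH3-only proteins, 1 passed higher and 5 lower (19.5% and 18.3% of all genes). The median log2 fold change of this list was -0.28. For the ubiquitin ligase HUWE1 and the deubiquitinase USP9X, which were among those 5 and are named after their values were seen, DMSO replicate 2 was far above the other DMSO libraries. HUWE1 had 40872, 74364 and 43683 normalized counts in DMSO, and USP9X had 19970.5, 25748 and 20322 in DMSO and 20552, 16656 and 17267 in Chelator, so that its groups overlapped. Of 17 splicing regulators linked to BCL2L1 or MCL1, 0 passed higher and 9 lower (19.5% and 18.3% of all genes), with a median of -0.25. SRSF1 was the one called, with 66800.0 ± 3008 normalized counts in DMSO and 32875 ± 2542 in Chelator, a log2 fold change of -1.02 (adjusted p = 1.39e-38, DESeq2) that was past the fold threshold in 9 of 14 settings. PCBP1 and PCBP2, the RNA-binding proteins that the series was designed around, had log2 fold changes of -0.35 and -0.25.

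**Figure D5:**
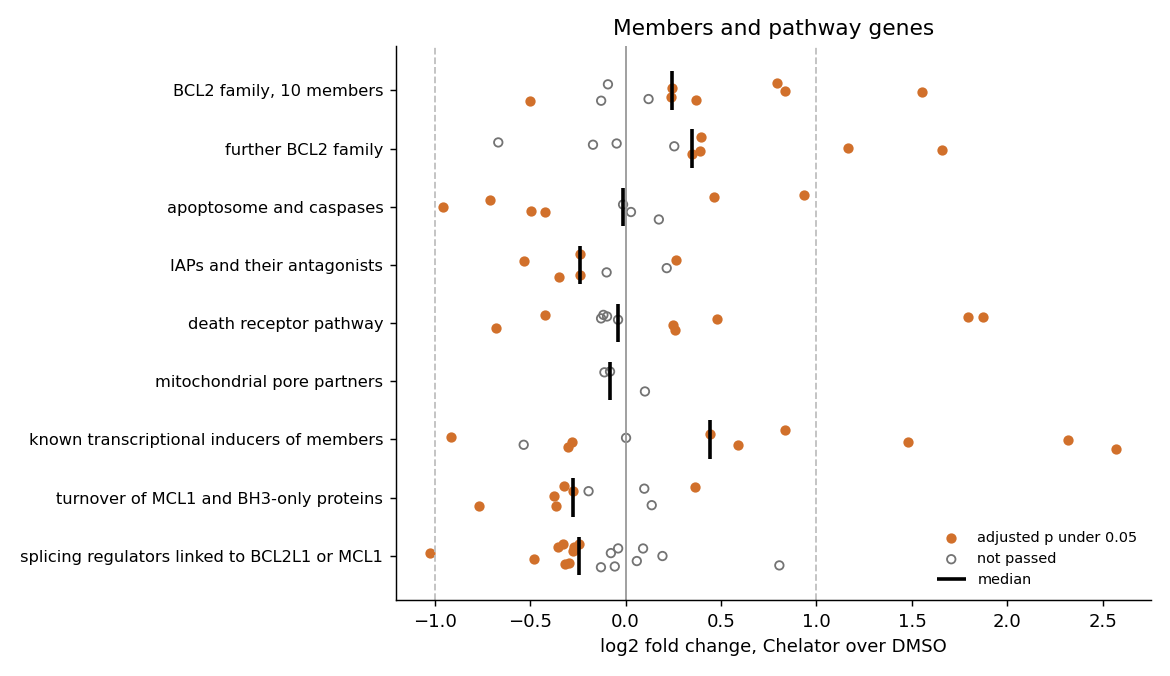
Log2 fold change (Chelator over DMSO) of the 10 members and of each pathway gene with an adjusted p, 1 point per gene, filled where the adjusted p was under 0.05 and open where it was not, with the list median as a bar and dashed lines at the fold threshold. BBC3 is the member past the threshold, and the largest values belong to ATF3 and DDIT3 among the known inducers of members.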

How the data were processed

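The authors quantified each library with salmon 1.10.2. The deposited files hold estimated counts for 252045 transcripts and TPM values, which the authors' tool derived from the counts with the effective transcript length. The hg38 build is named in the submitters' processing notes, and the transcript annotation and any bias or strand setting are not given in the sources used here. Identifiers were matched to GENCODE release 44, and unmatched transcripts (0.139% to 0.150% of counts) were left out. Of 87 member transcripts, 83 matched in version and length, and 4 BCL2L11 transcripts of another version were given no coding product.

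Estimated counts were summed per gene and rounded. Genes with a total above 10 (26074 genes) entered DESeq2's Wald test (version 1.42.0, R 4.3.3) with median-ratio size factors and an average transcript length offset, and the 3 Chelator libraries were compared with the 3 DMSO libraries. A gene passed at a Benjamini-Hochberg adjusted p under 0.05 and was called if its absolute log2 fold change was also above 1, as in the study's methods. Transcript usage came from diffSpliceDGE of edgeR 4.0.16 (quasi-likelihood fit), restricted to transcripts that reached 10 counts in 3 or more libraries (56 of them of members), with calls at an adjusted Simes p-value below 0.05 and a change of share beyond 5 percentage points. Product shares were compared by exact permutation (scipy 1.17.1). The tests were checked on simulated data. The 14 alternative settings were no length offset, TMM size factors, edgeR's quasi-likelihood test, 2 other filters on low counts, centring on the mean log2 change, removal of GC content and length trends, a replicate block and each of the 6 libraries left out in turn. Other fold thresholds were also tried. limma 3.58.1 was an alternative for usage.

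The members and lists were chosen with earlier results of these data known, and 1 gene of the lists and 1 further list are not reported here. All members are named. Of each list, called genes are named, up to 4 by the largest change, where the mean normalized count reached 50. Transcripts of BCL2L1, MCL1 and BCL2L11 are named from 5% of the gene's TPM, and other transcripts where they decide a usage call.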

Additional observations from a re-analysis of the deposited data

How the results depend on the processing

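MCL1, BCL2L1, BBC3 and PMAIP1 passed in all 14 alternative settings, BAD in 11, BCL2 in 8, BAX in 6, BAK1 in 3, BID in 1 and BCL2L11 in 0. With GC content and length trends removed, 2 members and 2628 genes in all were called, and BAX was at -0.012. Without the length offset BCL2L11 was at -0.14. With no fold threshold 7 members, 47 pathway genes and 9260 genes in all were called, against 8 pathway genes and 2646 genes in all with it. With the fold threshold of 1 put inside the DESeq2 test, 4 pathway genes and 674 genes in all were called. Leaving out 1 library at a time left 4 to 7 members past the adjusted p, with 4 without Chelator replicate 3. For usage, limma called 6 members and 3184 genes, and the likelihood ratio fit, chosen after seeing the data, 4 members and 2270 genes. A minimum in 5 libraries gave 3 members and 944 genes in all, and transcripts of at least 500 bases gave 2 members and 1004 genes. A share change above 10 points gave 1 member and 728 genes in all. Leaving out 1 library gave 0 to 1 members (BCL2L1 without DMSO replicate 2, MCL1 without DMSO replicate 3 or Chelator replicate 1) and 539 to 1063 genes, with 592 without Chelator replicate 2 and 539 without Chelator replicate 3. The difference in the BCL-xS share ran from -0.27 to 0.89 points over the libraries left out. The cause of these differences was not tested.

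Correlations of deviations were -0.0036, 0.13 and 0.094 between libraries of the same replicate number, for numbers 1 to 3. Between libraries of different numbers they ran from -0.12 to 0.046. Whether the replicate numbers pair the libraries was not settled by these values. With the replicate block, 1 member was called and 5 passed, 2345 genes were called in all, and usage was called in 1 member and 923 genes. BCL2 (adjusted p = 0.0630) and BAX (0.0547) no longer passed with the block. The member with the fewest estimated counts was BCL2, with 191 to 317 per library.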
